A study of Mus musculus with 24 samples.

Results

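The genes of the perineuronal matrix described here are 10 in number, of the 33902 gene symbols in the snRNA-seq count table. They were chosen by name and for their known place in the matrix, with no measured value in the rule: the lecticans Acan, Bcan, Ncan and Vcan, the link proteins Hapln1 and Hapln4, the tenascins Tnr and Tnc, and the membrane proteoglycans Ptprz1 and Cspg5. All 10 were listed and had counts in both strains. Ventral hippocampus of adult males of 2 inbred mouse strains gave the nuclei: C57BL/6J (B6), from which the mouse reference genome was made, and DBA/2J (D2). The labels name no transgene or treatment. Each assay, snRNA-seq for transcripts and snATAC-seq for open chromatin, had 2 libraries per strain, each pooling tissue from about 2 animals 10 to 16 weeks old. In snRNA-seq the nuclei were sorted on NeuN, which enriched neuronal nuclei and kept some others, and in snATAC-seq the sort did not use NeuN. The p-values therefore measure the spread between pools of animals. The other 16 of the 24 samples of the series hold methylation profiles and were not analysed here. The comparisons asked where in the hippocampus each gene was transcribed, whether its level and the accessibility of its chromatin differed between D2 and B6, and whether that difference was the same in every cell type.

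The perineuronal matrix is the extracellular material that condenses around neurons, where its densest form is the perineuronal net, and that also fills the space between cells and around synapses. Its backbone is hyaluronan, a long sugar polymer made at the cell surface. The lecticans, which carry chondroitin sulfate chains, bind hyaluronan at one end with the help of link proteins, and tenascins bind the lecticans at the other end and join them into a mesh. In the hippocampus the nets are known best around interneurons that contain parvalbumin and around pyramidal cells of area CA2, and the looser matrix is known to restrain plasticity and the growth of axons.

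Counts were available as 1 sum per cell type and library, for 17 cell types in snRNA-seq and 15 in snATAC-seq, so cell barcodes shared between libraries could not be counted. Levels are given in CPM, the counts of a gene scaled to 1000000 counts in that cell type and library. The snRNA-seq libraries held 43048686 to 56452272 counts from 6312 to 8707 nuclei, and the cell type sums ranged from 139713 (CR-CR, 45 nuclei in D2 library 2) to 11352265 (Exc-DG). The snATAC-seq libraries held 90684494 to 122322471 counts, but their glial sums were thin, with 278059 to 418650 counts from 14 to 32 nuclei per library in NN-OPC. The column names number the libraries of each strain 2 and 3 and the sample labels 1 and 2, so columns could be placed in a strain but not on a sample, and the column numbers are used here. Marker lists for astrocytes, oligodendrocytes, their precursors, microglia, vascular cells, CA3, Cajal-Retzius cells and the MGE and CGE interneurons were each highest in the cell type with that label (NN-Astro, NN-ODC, NN-OPC, NN-MGC, NN-VLMC, Exc-CA3, CR-CR, Inh-MGE, Inh-CGE). The dentate granule list was higher in CR-CR (mean of its summed level 361.5 CPM) than in Exc-DG (333 CPM), and the Lamp5 list, which shares Ndnf with the Cajal-Retzius list, was higher in CR-CR (903 CPM) than in Inh-Lamp5 (718 CPM), so these labels are used as given. The CA1 list was highest in Exc-CA1-Galntl6 (519 CPM) but reached 74.3% of that level in NN-MGC.

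The genes lie on 8 chromosomes in GRCm38, and each of the lecticans has a link protein gene as its nearest neighbour in the order of protein-coding genes, with none between them. Hapln4 (chr8:70083457-70090862, plus strand) ends 2222 bp from Ncan (chr8:70093085-70120873, minus strand), and Hapln1 (chr13:89539796-89611652, plus strand) ends 43659 bp from Vcan (chr13:89655312-89742509, minus strand). Bcan (chr3:87987531-88000230, minus strand) and Acan (chr7:79053483-79115099, plus strand) have Hapln2 at 21519 bp and Hapln3 at 2 bp. Tnr (chr1:159523769-159931729, plus strand) is the longest of the 10 at 407961 bp, Tnc spans chr4:63959785-64047015 (minus strand), Ptprz1 chr6:22875502-23052916 (plus strand) and Cspg5 chr9:110243783-110262576 (plus strand). Several share sequence with other transcripts, and reads in such a stretch may have been divided between the genes. Tnr itself had 66894 counts over the B6 libraries and 41651 over the D2 libraries. Of the transcripts on its strand Gm37731 gave 0 and 465 counts and Gm10530 gave 61 and 44, and the antisense Gm38039 gave 1129 and 1744. Cspg5 had 10573 and 14427 counts, and Gm43622 on the opposite strand 0 and 674. Antisense transcripts at Vcan and Tnc were as abundant as the members or more so: Gm4117 had 7313 and 5136 counts beside 3743 and 3056 for Vcan, and 8030451A03Rik 2474 and 2542 beside 1377 and 1661 for Tnc.

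Promoter sequences are shown for 4 members whose levels or chromatin the results turn on. Tnr and Ncan had intervals with peaks that differed between strains. Vcan and Ptprz1 were among the members whose promoter accessibility followed their transcripts across cell types, and Bcan, which did so more closely, is not shown. The sequences are the 300 bases from 250 before to 50 after the start of the gene in RefSeq (GRCm38.p6), 5′ to 3′ on the strand of the gene. Capitals mark matches, on either strand, to the short motifs searched, which were TATAAA and CAGCTG, together with ACAAAG and ACAATG, and also GGGCGG.
Tnr, chr1:159523519-159523818, plus strand: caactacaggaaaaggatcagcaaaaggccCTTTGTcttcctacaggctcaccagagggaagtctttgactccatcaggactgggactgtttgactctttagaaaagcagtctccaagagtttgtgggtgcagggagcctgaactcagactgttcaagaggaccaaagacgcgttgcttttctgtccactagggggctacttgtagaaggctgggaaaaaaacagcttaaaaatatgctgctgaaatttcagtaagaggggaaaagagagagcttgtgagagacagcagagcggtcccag
Ncan, chr8:70120795-70121094, minus strand: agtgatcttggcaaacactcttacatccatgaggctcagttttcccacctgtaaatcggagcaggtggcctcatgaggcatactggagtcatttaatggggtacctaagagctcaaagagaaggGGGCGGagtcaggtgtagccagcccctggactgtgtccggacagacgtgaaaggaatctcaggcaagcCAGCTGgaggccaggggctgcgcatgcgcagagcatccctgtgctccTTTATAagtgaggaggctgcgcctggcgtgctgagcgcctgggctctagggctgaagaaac
Vcan, chr13:89742463-89742762, minus strand: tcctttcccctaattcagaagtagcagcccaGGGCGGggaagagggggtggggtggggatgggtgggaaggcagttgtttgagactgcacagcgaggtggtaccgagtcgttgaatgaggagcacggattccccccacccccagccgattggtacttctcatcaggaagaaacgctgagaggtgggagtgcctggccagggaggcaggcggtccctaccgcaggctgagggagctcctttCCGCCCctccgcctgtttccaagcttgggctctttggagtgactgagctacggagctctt
Ptprz1, chr6:22875252-22875551, plus strand: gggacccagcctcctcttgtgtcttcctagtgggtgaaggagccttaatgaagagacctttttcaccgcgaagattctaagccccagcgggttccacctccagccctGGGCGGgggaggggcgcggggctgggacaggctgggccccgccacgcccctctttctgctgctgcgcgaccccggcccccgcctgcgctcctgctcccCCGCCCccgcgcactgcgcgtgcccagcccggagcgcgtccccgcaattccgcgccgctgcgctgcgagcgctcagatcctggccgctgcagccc

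RefSeq held such a sequence for 8 of the 10 genes (9 entries, since Tnc has 2), and Hapln4 and Cspg5 had none in the table. The promoters of the members differed widely in base composition. The Tnr promoter was 48% G and C with 3 CpG, and its only match among the 5 motifs was an ACAAAG on the minus strand 220 bases before the start, a motif found in 18.7% of 32851 RefSeq promoters. The Ptprz1 promoter was 71.7% G and C with 29 CpG and had GGGCGG at 2 places, and that of Acan was 74% with 31 CpG. The median over all promoters was 52.7% with 7 CpG. GGGCGG was found in 7 of the 9 entries and in 35.7% of all promoters, TATAAA in 3 and in 13.6%, CAGCTG in 2 and in 16.3%, and ACAATG in 0 and in 12.6%. The 2 entries of Tnc overlap and hold the same GGGCGG and TATAAA sites, so each of these sites is counted 2 times. These matches are a description of the letters in the window.

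**Figure D1:**
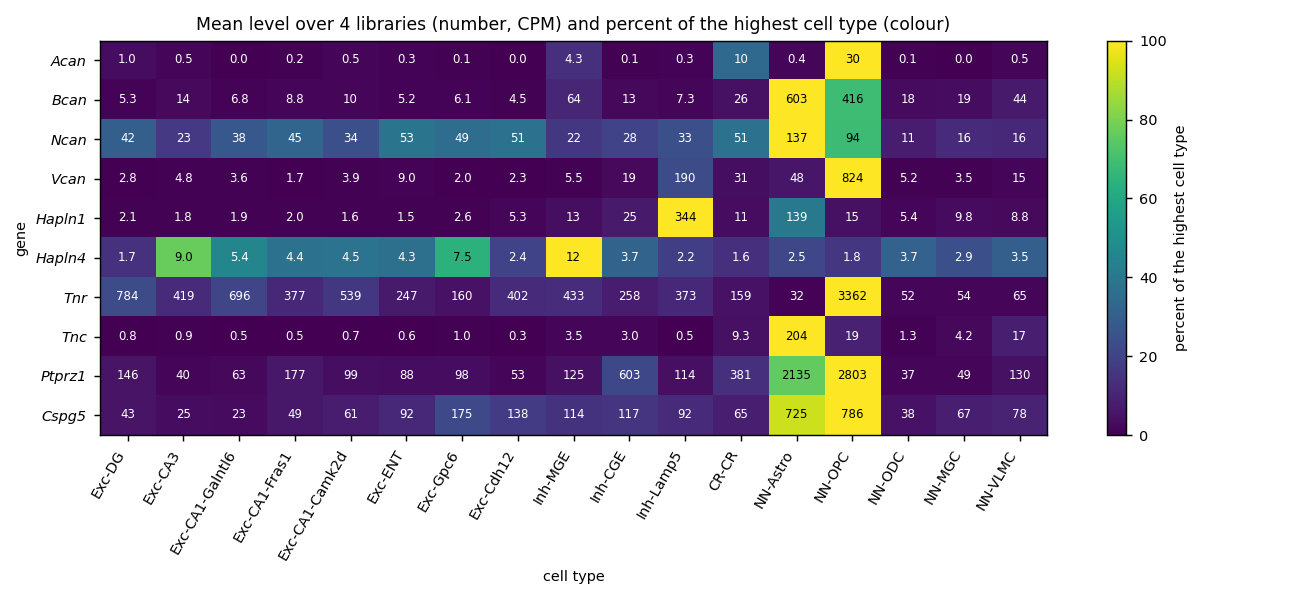
Mean level of each gene in each of 17 cell types over the 4 snRNA-seq libraries, with genes as rows and cell types as columns. The number is the mean in CPM, and the colour is the percent of the cell type in which that gene was highest. Tnc and Vcan have 76.5% and 70.3% of their summed level in 1 column, while Ncan and Hapln4 are spread over many columns.

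Among the lecticans, each had its highest mean in a glial cell type. The cell types were clusters of the same transcripts, so levels across them are a description and carry no test, and for sums over nuclei fewer transcribing cells and less RNA per cell cannot be told apart. Vcan, versican, was highest in NN-OPC, the oligodendrocyte precursors, at 891 and 759 CPM in B6 and 801 and 843 CPM in D2, and these 4 values stood for 70.3% of its summed CPM over the cell types. Its second cell type was Inh-Lamp5 with 219 and 208 CPM in B6 and 165 and 166 CPM in D2, apart from NN-OPC above it and from NN-Astro below it. Every other cell type was at or below 5.9% of the NN-OPC mean. Bcan, brevican, a lectican of mature glia, was highest in NN-Astro at 683 and 530.4 CPM in B6 and 605 and 593 CPM in D2. It was next highest in NN-OPC at 435 and 389 CPM in B6 and 418 and 421 CPM in D2, and the ranges of the 2 cell types did not overlap. Inh-MGE followed at a mean of 63.8 CPM, 10.6% of the astrocyte level, apart from NN-OPC but overlapping NN-VLMC.

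Ncan, neurocan, was the most evenly spread of the lecticans. Its level in NN-Astro was 145 and 118 CPM in B6 and 136 and 151 CPM in D2, only 18.5% of the sum over cell types, and in NN-OPC 110.4 and 89.9 CPM in B6 and 94.6 and 82.5 CPM in D2. Excitatory neurons and CR-CR followed, from a mean of 53.1 CPM in Exc-ENT down, with neighbouring cell types overlapping, and in counts per nucleus, which take into account the smaller sums of glial nuclei, the highest cell type was Exc-CA1-Fras1 (9.28% in NN-Astro). Acan, aggrecan, the lectican most closely tied to perineuronal nets, was sparse, with 311 counts in all. It was highest in NN-OPC at 41.4 and 38 CPM in B6 and 20.4 and 21.9 CPM in D2 and was also found in Inh-MGE, the class that includes parvalbumin interneurons, at 1.43 and 4.03 CPM in B6 and 5.09 and 6.56 CPM in D2. CR-CR came second by its mean (10.4 CPM) and first in D2 library 3, on 9 counts of Acan in all 4 libraries together. No count was found in any library of Exc-CA1-Galntl6, Exc-Cdh12 or NN-MGC, which in B6 library 2 allows up to 0.372 CPM in Exc-CA1-Galntl6 (3 counts).

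The link proteins differed from the lecticans beside them in the genome. Hapln1, which locks lecticans onto hyaluronan, was highest in Inh-Lamp5, the interneurons labelled by Lamp5, at 386 and 327 CPM in B6 and 336 and 326 CPM in D2, and second in NN-Astro at 154 and 151 CPM in B6 and 128 and 123 CPM in D2. These 2 cell types stood apart from each other and from all others, of which the next, Inh-CGE, had a mean of 24.9 CPM. Its neighbour Vcan also had its second highest level in Inh-Lamp5, but in NN-OPC Hapln1 was at 4.5% of its own highest level. Hapln4, the link protein of mature neurons, was low throughout, with 940 counts in all, and was highest in Inh-MGE at 10.9 and 7.80 CPM in B6 and 13.5 and 14.6 CPM in D2. Exc-CA3 (mean 8.96 CPM), Exc-Gpc6 (7.50 CPM) and Exc-CA1-Galntl6 (5.35 CPM) followed, each overlapping the next. The glial types NN-Astro and NN-OPC had means of 2.48 and 1.83 CPM.

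The tenascins divided between precursors and neurons on one side and astrocytes on the other. Tnr, tenascin-R, which crosslinks lecticans, was highest in NN-OPC at 3897 and 3333 CPM in B6 and 3195 and 3023 CPM in D2. It was also found in every neuronal class, with a mean of 784.4 CPM in Exc-DG, 696 CPM in Exc-CA1-Galntl6 and 433 CPM in Inh-MGE, and it was lowest in NN-Astro, NN-ODC, NN-MGC and NN-VLMC. Tnc, tenascin-C, a tenascin of developing and reactive tissue, was highest in NN-Astro at 174 and 214 CPM in B6 and 185 and 244 CPM in D2, with 76.5% of its summed CPM there. NN-OPC followed at a mean of 18.8 CPM, and in every neuronal type other than CR-CR (9.31 CPM) the mean was at or below 3.45 CPM.

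The membrane proteoglycans were highest in the same pair of glial types. Ptprz1, the receptor phosphatase whose shed form is phosphacan, had 2635 and 2910.1 CPM in B6 and 2733 and 2933 CPM in D2 in NN-OPC. It had 1997 and 2037 CPM in B6 and 2132 and 2372 CPM in D2 in NN-Astro, apart from NN-OPC, and a mean of 603 CPM in Inh-CGE. Cspg5, neuroglycan C, had 596 and 661 CPM in B6 and 867 and 1018 CPM in D2 in NN-OPC. In NN-Astro its values of 594 and 596 CPM in B6 and 833 and 877 CPM in D2 overlapped those of NN-OPC, and with TMM factors over all columns NN-Astro became the highest cell type. The neuronal types had means from 22.5 to 175 CPM of Cspg5, from Exc-CA1-Galntl6 to Exc-Gpc6.

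The genes most like each member in their log2(CPM + 1) over the 17 cell types were found among 17262 genes that reached 5 CPM in a cell type. The 17 points share libraries and depth, and the correlations are a description. Vcan was most like Mmp15 (Pearson r = 0.93), Has2os (0.89) and Has2 (0.89), and Has2 is a hyaluronan synthase that like Vcan was highest in NN-OPC. For Acan they were 4930503L19Rik (0.92), Dll3 (0.90) and B3gnt7 (0.89), for Bcan Gm16499 (0.95), Ednrb (0.92) and Gm45025 (0.92), and for Ncan Gm29994 (0.88) and Mir9-3hg (0.86). Tnr was most like the glutamate transporter gene Slc1a1 (0.96), Gm35021 (0.92) and 4430402I18Rik (0.92). Tnc was most like 8030451A03Rik (0.98), the transcript antisense to it, Ppp1r3c (0.97) and Tlcd1 (0.96). Hapln1 was most like 6530411M01Rik (0.90), Ostm1 (0.90) and Nr2e1 (0.87), Ptprz1 like AI849053 (0.90), Rfx4 (0.88) and Gpld1 (0.87), and Cspg5 like Gm29443 (0.88), Rasa2 (0.88) and Gm33680 (0.87). Hapln4 had the weakest likeness, to Gm47033 (0.74), Adss (0.73) and Arf5 (0.72). Among the members themselves the closest pair was Bcan and Tnc (0.91), followed by Ptprz1 with Cspg5 (0.79), and Vcan with Hapln1 had 0.70.

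Between the strains, Tnr was lower in D2 in most cell types and Cspg5 higher, while the other members differed in a few cell types each. The members gave 170 pairs of gene and cell type, of which 114 had enough counts to be tested by edgeR with a quasi-likelihood test (adjusted p under 0.05 after Benjamini-Hochberg over all transcripts of a cell type). D2 was higher in 13 and lower in 24, which is 11.4% and 21.1% of those tested, beside 6.24% and 8.4% over all transcripts and cell types (14.6% in either direction). When symbols with counts in only 1 strain were kept, the shares over all transcripts were 12.9% higher and 9.25% lower, with 8204 of these symbols in D2 only and 960 in B6 only. The references used for the 2 strains therefore appear to hold different gene lists. The part of the references and of mapping in the strain differences of transcripts was not tested. The median log2 fold change of the 114 was 0.02, and the medians over all transcripts of a cell type lay between -0.0049 and 0.013. Tnr and Cspg5 made 22 of these 37 calls. The pairs tested covered 17 cell types for Tnr, Cspg5 and Ptprz1, 15 for Ncan, 14 for Bcan, 11 for Vcan, 9 for Hapln4, 8 for Hapln1 and 3 for Acan and Tnc. Over all transcripts the share called differed widely with the size of the cell type. It was 25.6% in Exc-DG, 21.9% in Exc-CA3, 26% in Exc-CA1-Galntl6, 20.2% in Exc-CA1-Fras1, 9.4% in Exc-CA1-Camk2d, 18.6% in Exc-ENT, 12.5% in Exc-Gpc6 and 3.3% in Exc-Cdh12. It was 11.8% in Inh-MGE, 8.13% in Inh-CGE, 8.43% in Inh-Lamp5 and 2.2% in CR-CR. Among glia it was 18.7% in NN-Astro, 11.3% in NN-OPC, 14.2% in NN-ODC, 8.13% in NN-MGC and 5.82% in NN-VLMC. Pairs of the same gene share libraries, so they are not independent tests. With 2 libraries per strain an exact permutation test of 1 value cannot go below p = 0.33, and DESeq2, another test of the same counts, called 3 higher (all Cspg5) and 11 lower (10 of Tnr and Ncan in Exc-DG), so the calls of the other members below were made by edgeR and not by DESeq2.

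**Figure D2:**
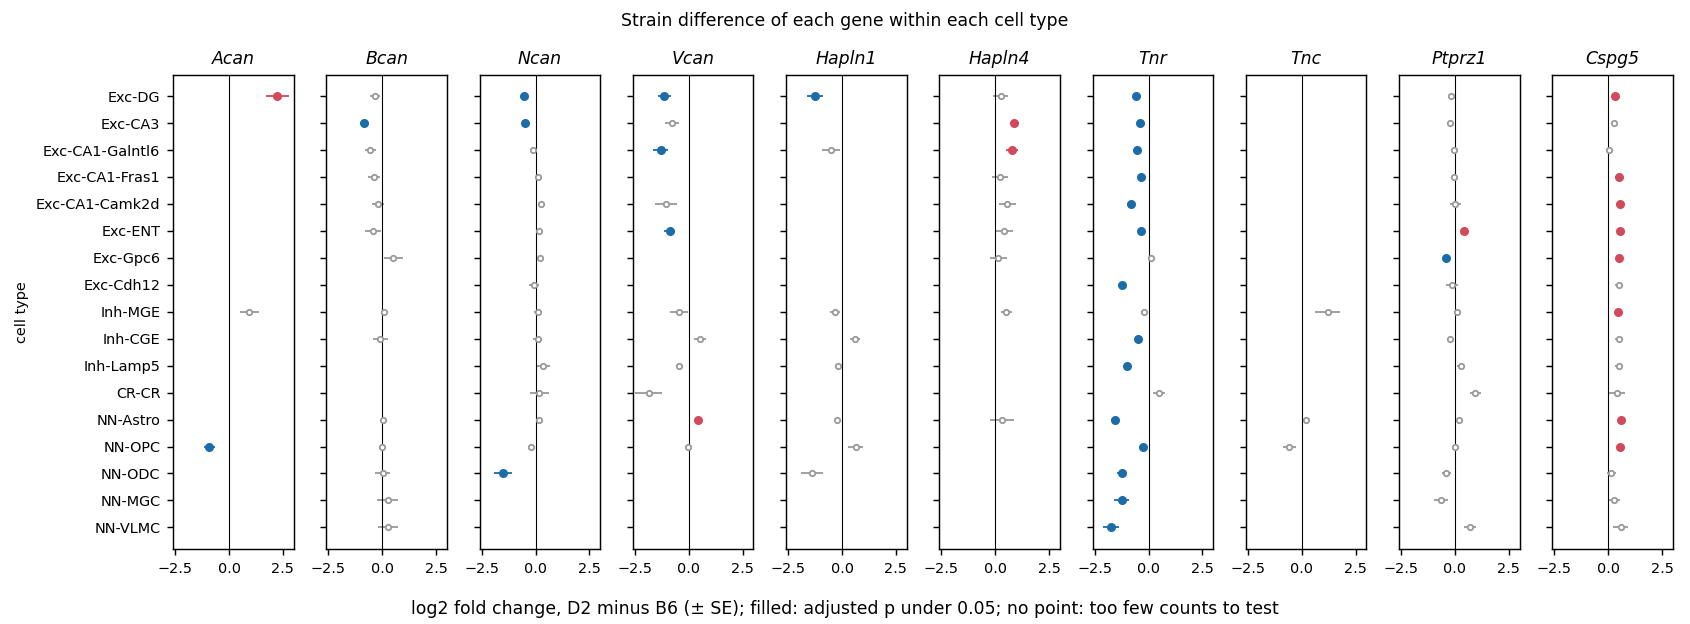
Log2 fold change of D2 against B6 for each gene (panels) in each cell type (rows), with its standard error as a bar. Filled points passed adjusted p under 0.05 (red higher and blue lower in D2), open points did not, and pairs with too few counts have no point. Tnr has 14 blue points of 17 and Cspg5 has 8 red points of 17, with all 17 to the right of 0.

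Tnr fell in 14 of 17 cell types. In Exc-DG its levels were 942 and 894 CPM in B6 and 657 and 645 CPM in D2 (log2 fold change -0.56, SE 0.06, adjusted p = 6.1e-06). Both D2 libraries were well below both B6 libraries there, by several times the gap between libraries of a strain. In Exc-CA1-Galntl6 they were 791 and 832 CPM in B6 and 572 and 590.0 CPM in D2 (log2 fold change -0.55, SE 0.05, adjusted p = 1.67e-07), and in Inh-Lamp5 489 and 489 CPM in B6 and 278 and 237 CPM in D2 (log2 fold change -1.0, SE 0.13, adjusted p = 8.16e-08). In both, the libraries of a strain lay close together and the strains did not overlap. Exc-Cdh12 (659 and 452 CPM in B6 and 269.8 and 227 CPM in D2, log2 fold change -1.21, SE 0.19, adjusted p = 0.00229) and Exc-CA1-Camk2d (815 and 536 CPM in B6 and 423 and 383 CPM in D2, log2 fold change -0.80, SE 0.17, adjusted p = 0.00966) fell as well, and there B6 library 2 stood well above B6 library 3. The change was smaller in Exc-CA3 (-0.38), Exc-ENT (-0.34), Exc-CA1-Fras1 (-0.33) and Inh-CGE (-0.49), all called lower. In NN-OPC, where Tnr was highest, it was smallest among the calls (log2 fold change -0.25, SE 0.08, adjusted p = 0.021), and it passed neither with the library number as a block (adjusted p = 0.0771) nor with DESeq2 (adjusted p = 0.18), nor without B6 library 2 (adjusted p = 0.41) or D2 library 3 (adjusted p = 0.165).

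The 3 cell types in which Tnr did not pass were Inh-MGE, Exc-Gpc6 and CR-CR. Inh-MGE had 427 and 482 CPM in B6 and 399 and 425 CPM in D2 (log2 fold change -0.22, SE 0.11, adjusted p = 0.207), with 1 library of each strain nearly equal. Exc-Gpc6 had 148 and 153 CPM in B6 and 176 and 164 CPM in D2 (log2 fold change 0.10, SE 0.12, adjusted p = 0.667), and in CR-CR D2 had the 2 higher values (156 and 103 CPM in B6 and 172 and 205 CPM in D2, log2 fold change 0.48, SE 0.29, adjusted p = 0.463). The number of cell types with Tnr lower was 10 with DESeq2, and 8 without D2 library 3, the lowest number with any 1 library left out.

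In glia other than precursors, the log2 differences of Tnr were the largest although its levels were low, from 0.954% of the NN-OPC level in NN-Astro to 1.92% in NN-VLMC. NN-Astro had 52.1 and 44.8 CPM in B6 and 18.5 and 13 CPM in D2 (log2 fold change -1.57, SE 0.18, adjusted p = 2.93e-07) and NN-ODC 60.9 and 85.3 CPM in B6 and 40.5 and 19.6 CPM in D2 (log2 fold change -1.25, SE 0.23, adjusted p = 0.000482). NN-VLMC had 85.6 and 108 CPM in B6 and 17.7 and 47.3 CPM in D2 (log2 fold change -1.74, SE 0.39, adjusted p = 0.00204) and NN-MGC 90.8 and 60.2 CPM in B6 and 45.3 and 19.4 CPM in D2 (log2 fold change -1.25, SE 0.35, adjusted p = 0.0289). In each of the 4 the D2 libraries lay below the B6 libraries. Markers of other cells were found in the same sums. In NN-Astro the excitatory list, with 3 of 3 genes measured and none at 0, summed to 74.8 and 76.4 CPM in B6 and 72.7 and 48.0 CPM in D2, and its gene Slc17a7 had 62.5 and 59.1 CPM in B6 and 47.2 and 37.2 CPM in D2 (log2 fold change -0.48, SE 0.14, adjusted p = 0.0183). The oligodendrocyte list there, with 4 of 4 genes measured and none at 0, summed to 319 and 291 CPM in B6 and 146 and 128 CPM in D2, and its gene Mbp, of myelin, had a log2 fold change of -1.14. The precursor list, with none of its 4 genes at 0, went the other way, from 29.6 and 23.7 CPM in B6 to 40.2 and 36.9 CPM in D2. In NN-ODC the excitatory list summed to 91.6 and 84.1 CPM in B6 and 80.9 and 63.0 CPM in D2, in NN-MGC to 120.4 and 123 against 107 and 113 CPM, and in NN-VLMC to 76.6 and 95.1 against 61.9 and 101 CPM, with none of its genes at 0. The part of RNA from other cells in the glial values of Tnr was not tested.

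**Figure D3:**
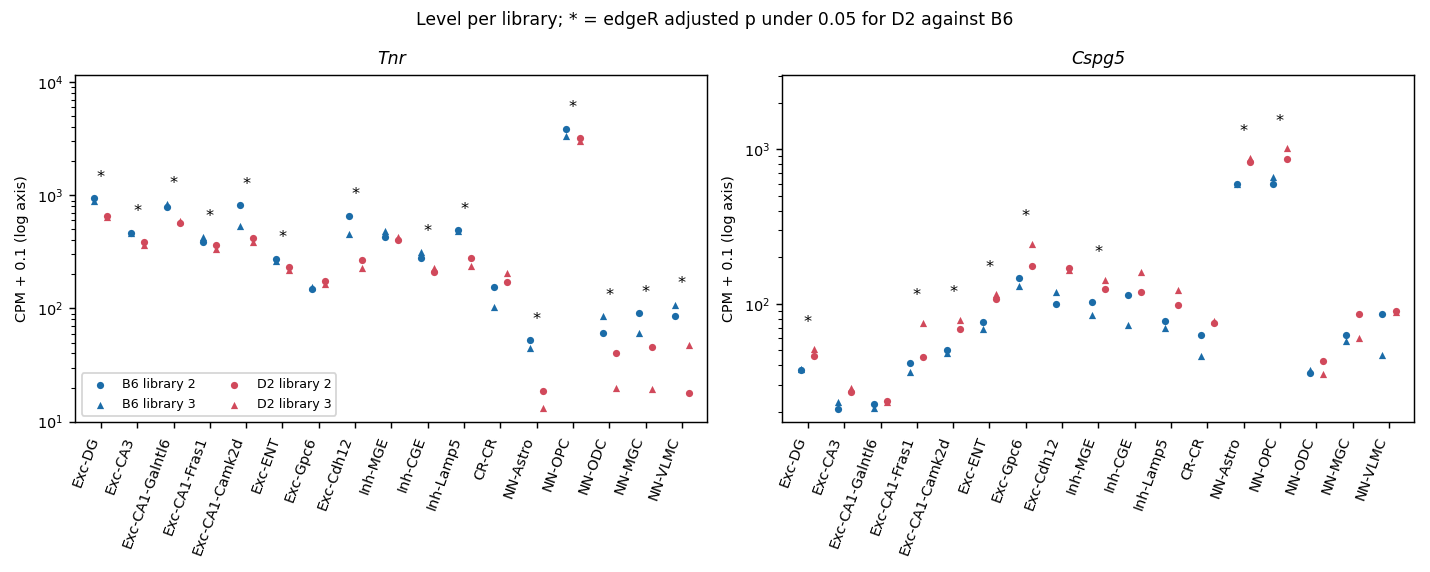
Levels of Tnr and Cspg5 in each snRNA-seq library (CPM + 0.1 on a log axis) by cell type, with B6 in blue and D2 in red, library 2 as circles and library 3 as triangles. An asterisk marks adjusted p under 0.05. The red points of Tnr lie below the blue in most cell types, in Exc-DG at 645 to 657 against 894 to 942 CPM, and those of Cspg5 lie above, in NN-Astro at 833 to 877 against 594 to 596 CPM.

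Tnc could be tested in 3 cell types and passed in none of them with all libraries. In NN-Astro, where it was highest, the strains overlapped (log2 fold change 0.20, SE 0.12, adjusted p = 0.284), and the differences in NN-OPC (log2 fold change -0.57, SE 0.31, adjusted p = 0.281) and Inh-MGE (log2 fold change 1.20, SE 0.60, adjusted p = 0.218) had standard errors too wide to tell them from 0. By edgeR 0 of the 3 had an unadjusted p below 0.05, and DESeq2 called 0 of the 7 cell types that it tested. Without B6 library 3 Tnc was called higher in NN-Astro (log2 fold change 0.34, adjusted p = 0.0248), and without D2 library 2 in Inh-MGE (log2 fold change 1.91, adjusted p = 0.0438).

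Cspg5 was higher in D2 in 8 of 17 cell types, and all 17 log2 fold changes were above 0. In NN-Astro its levels were 594 and 596 CPM in B6 and 833 and 877 CPM in D2 (log2 fold change 0.57, SE 0.09, adjusted p = 1.94e-05), and in NN-OPC 596 and 661 CPM in B6 and 867 and 1018 CPM in D2 (log2 fold change 0.55, SE 0.09, adjusted p = 2.42e-06). The D2 libraries stood above the B6 libraries in both, by more than the gap within a strain. Neurons with a call were Exc-ENT (76.2 and 68.3 CPM in B6 and 107 and 115 CPM in D2, log2 fold change 0.53, SE 0.10, adjusted p = 0.000752), Exc-Gpc6 (0.51), Exc-CA1-Camk2d (0.53), Exc-CA1-Fras1 (0.49), Inh-MGE (0.44) and Exc-DG (0.30). Exc-CA1-Galntl6 was the cell type with the smallest difference (22.4 and 21 CPM in B6 and 23.4 and 23.2 CPM in D2, log2 fold change 0.03, SE 0.14, adjusted p = 0.891), and the remaining types without a call lay between 0.15 and 0.58. The number of cell types called fell to 3 with DESeq2, to 3 without D2 library 3 and to 5 without B6 library 3.

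Ptprz1, the other membrane proteoglycan, was called in 2 of 17 cell types, and these calls depended on single libraries. In NN-OPC the strains overlapped (log2 fold change 0.00, SE 0.08, adjusted p = 0.999), and in NN-Astro the difference did not pass (log2 fold change 0.21, SE 0.08, adjusted p = 0.0888). It rose in Exc-ENT, from 67.5 and 76.8 CPM in B6 to 93.6 and 114 CPM in D2 (log2 fold change 0.43, SE 0.11, adjusted p = 0.0096), and fell in Exc-Gpc6, from 105 and 115 CPM in B6 to 85.9 and 87.1 CPM in D2 (log2 fold change -0.43, SE 0.13, adjusted p = 0.0237). The lower call in Exc-Gpc6 was lost without B6 library 3, D2 library 2 or D2 library 3, and the higher call in Exc-ENT without B6 library 2 or D2 library 3. Without B6 library 3 Ptprz1 was called higher in 3 cell types, Exc-ENT, NN-Astro and Exc-CA1-Camk2d.

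Of the 8 calls of a lectican lower in D2, 6 were in excitatory neurons, where Vcan and Bcan were at low levels while Ncan was more evenly spread. These 6 were in Exc-DG, Exc-CA3, Exc-CA1-Galntl6 and Exc-ENT. There 25.6%, 21.9%, 26% and 18.6% of all transcripts were called in either direction. Without D2 library 2 the lower calls of lecticans were 2. Ncan in Exc-DG had 51.8 and 44.2 CPM in B6 and 31.8 and 38.3 CPM in D2 (log2 fold change -0.52, SE 0.11, adjusted p = 0.00337), with both D2 libraries below both B6 libraries. It also fell in Exc-CA3, from 28.3 and 24.3 CPM in B6 to 19.1 and 20.1 CPM in D2 (log2 fold change -0.50, SE 0.15, adjusted p = 0.0276), and in NN-ODC, from 12 and 20.0 CPM in B6 to 4.50 and 6.30 CPM in D2 (log2 fold change -1.52, SE 0.41, adjusted p = 0.0126). None of these 3 calls passed without D2 library 2, and 2 of them passed without any other 1 library. In NN-ODC the astrocyte list, with none of its 5 genes at 0, summed to 309.6 and 345 CPM in B6 and 302 and 277 CPM in D2. The part of RNA from other cells there was not tested. In NN-Astro, the highest cell type of Ncan, the strains overlapped (log2 fold change 0.18, SE 0.12, adjusted p = 0.329), and without B6 library 2 Ncan was called higher there (log2 fold change 0.35, adjusted p = 0.0408).

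Vcan fell in Exc-DG (3.95 and 3.55 CPM in B6 and 1.84 and 1.70 CPM in D2, log2 fold change -1.13, SE 0.30, adjusted p = 0.012), Exc-CA1-Galntl6 (5.20 and 4.77 CPM in B6 and 1.48 and 2.85 CPM in D2, log2 fold change -1.30, SE 0.34, adjusted p = 0.0071) and Exc-ENT (11.9 and 11.1 CPM in B6 and 6.45 and 6.80 CPM in D2, log2 fold change -0.88, SE 0.26, adjusted p = 0.02). These are levels at or below 1.4% of that in NN-OPC, where Vcan did not differ beyond the spread of libraries (log2 fold change -0.04, SE 0.09, adjusted p = 0.876). In NN-Astro it rose (39.7 and 45.1 CPM in B6 and 50.4 and 58.5 CPM in D2, log2 fold change 0.41, SE 0.14, adjusted p = 0.0452), and in Inh-Lamp5, its second cell type, the D2 libraries were lower but the test did not pass (log2 fold change -0.44, SE 0.15, adjusted p = 0.0578). The 3 lower calls of Vcan became 1 without B6 library 2 or D2 library 2, and the call in NN-Astro was lost without B6 library 2 or D2 library 3. Acan rose in Exc-DG from 0.289 and 0.355 CPM in B6, which are 3 and 4 counts, to 1.26 and 2.10 CPM in D2 (log2 fold change 2.25, SE 0.54, adjusted p = 0.00565). It fell in NN-OPC, from 41.4 and 38 CPM in B6 to 20.4 and 21.9 CPM in D2 (log2 fold change -0.93, SE 0.26, adjusted p = 0.00735), a call lost without D2 library 2 (adjusted p = 0.0581), while that in Exc-DG was lost without D2 library 3 (adjusted p = 0.14). In Inh-MGE Acan had a wide error (log2 fold change 0.95, SE 0.46, adjusted p = 0.203).

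Bcan fell in 1 of 14 cell types tested, Exc-CA3, from 20.3 and 16.4 CPM in B6 to 11.7 and 9.46 CPM in D2 (log2 fold change -0.85, SE 0.20, adjusted p = 0.00656). The call was lost without B6 library 2, and without B6 library 3 Bcan was also called lower in Exc-CA1-Galntl6 (log2 fold change -0.72, adjusted p = 0.0471). In the 2 cell types that hold most of it the differences were close to 0, in NN-Astro with log2 fold change 0.03, SE 0.10, adjusted p = 0.889 and in NN-OPC with log2 fold change -0.01, SE 0.10, adjusted p = 0.987.

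**Figure D4:**
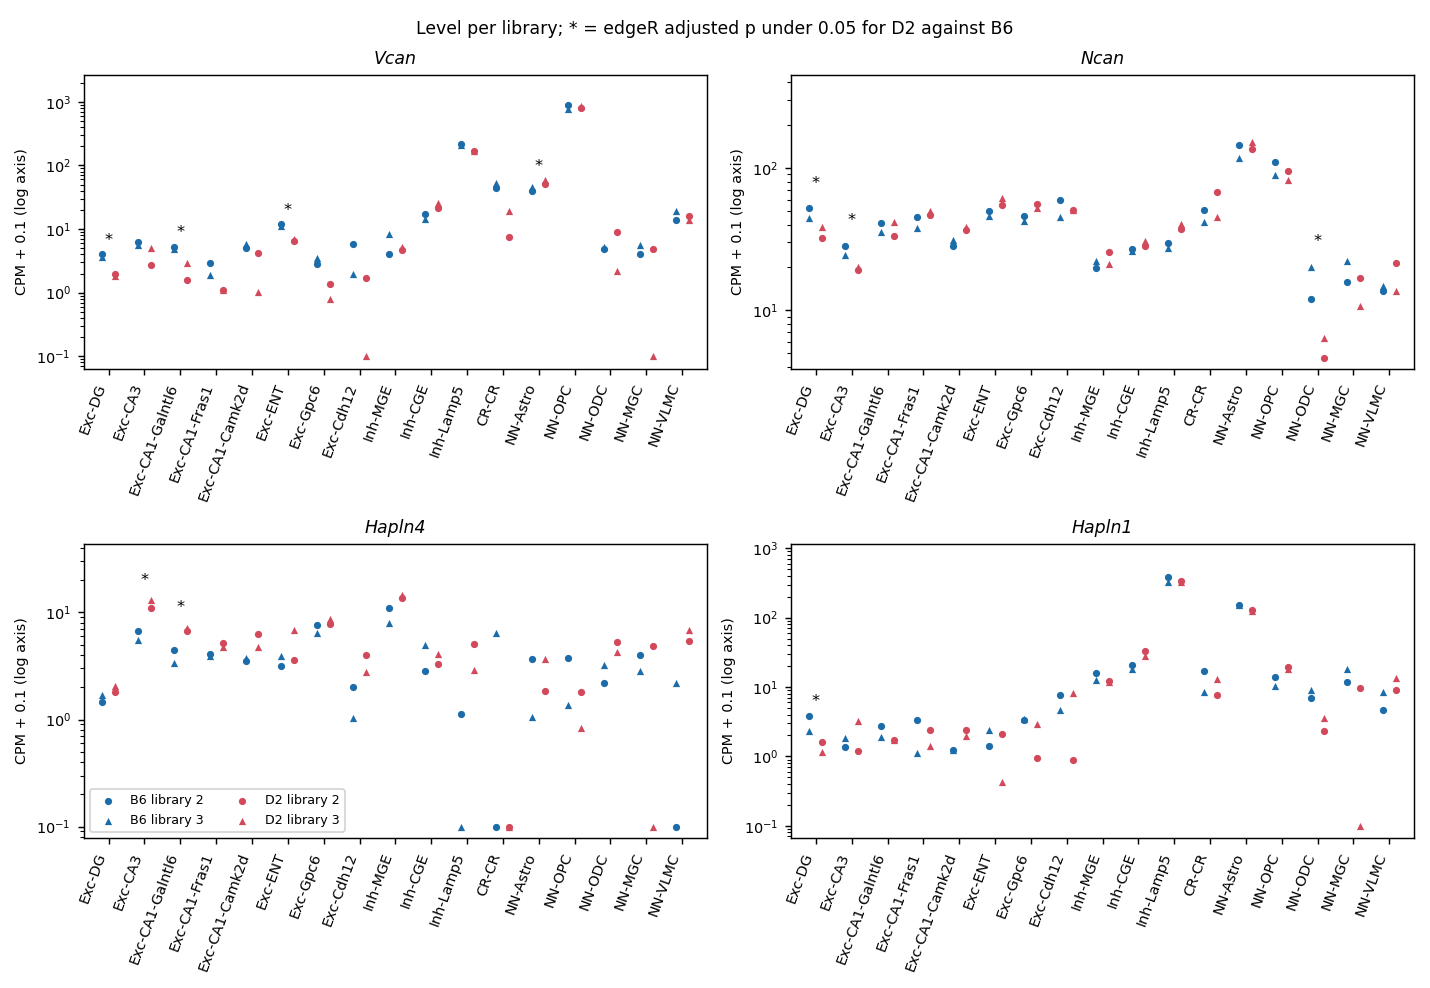
Levels of Vcan, Ncan, Hapln4 and Hapln1 in each snRNA-seq library (CPM + 0.1 on a log axis) by cell type, drawn as for Tnr and Cspg5. The asterisks stand mostly over cell types where the gene is low, such as Vcan in Exc-DG (1.70 to 3.95 CPM), and not over the cell type where it is highest, such as NN-OPC for Vcan and Inh-Lamp5 for Hapln1.

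Neither link protein was called in the cell type where it was highest. Hapln1 in Inh-Lamp5 had 386 and 327 CPM in B6 and 336 and 326 CPM in D2 (log2 fold change -0.18, SE 0.13, adjusted p = 0.494), and the strains overlapped. It fell in Exc-DG, from 3.75 and 2.22 CPM in B6 to 1.49 and 1.05 CPM in D2 (log2 fold change -1.26, SE 0.39, adjusted p = 0.0257), and passed in no other of the 8 cell types tested. This call was lost without B6 library 2 or D2 library 3. Hapln4 was above 0 in its log2 fold change in each of 9 cell types tested and passed in 2, in none without B6 library 3 and in 1 (Exc-CA3) without either D2 library. In Exc-CA3 it had 6.58 and 5.48 CPM in B6 and 10.9 and 12.9 CPM in D2 (log2 fold change 0.89, SE 0.22, adjusted p = 0.0109) and in Exc-CA1-Galntl6 4.34 and 3.27 CPM in B6 and 6.68 and 7.13 CPM in D2 (log2 fold change 0.78, SE 0.26, adjusted p = 0.0331). In both the D2 libraries lay above the B6 libraries. They did so in Inh-MGE too, where Hapln4 was highest, but there the test did not pass (log2 fold change 0.52, SE 0.26, adjusted p = 0.225).

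A single fit over all cell types, with libraries as blocks, tested whether the strain difference of a gene was the same in every cell type. The test passed for 16.6% of 18599 transcripts. Among the members it passed for Tnr (adjusted p = 5.78e-08), Vcan (adjusted p = 1.09e-05), Ncan (adjusted p = 7.68e-05), Ptprz1 (adjusted p = 0.00752) and Hapln1 (adjusted p = 0.0161). It also gave a p under the threshold for Acan (adjusted p = 0.00469) and Tnc (adjusted p = 0.0206), but each had enough counts for its own test in only 3 of the 17 cell types. Acan had no count in 1 or both strains in 11 cell types and Tnc in 3, so no strain difference could be estimated there, and their p says nothing of those cell types. The test did not pass for Bcan (adjusted p = 0.129), Hapln4 (adjusted p = 0.634) and Cspg5 (adjusted p = 0.65), so the 8 and 9 cell types of Cspg5 with and without a call were not shown to differ. Without D2 library 3 the members called were 4, with Acan, Hapln1 and Tnc lost. Acan was lost without B6 library 2 too, Hapln1 without B6 library 3, and Tnc without B6 library 3, without D2 library 2 and without the block. Ptprz1 did not pass the same test over the 13 cell types with at least 100 nuclei in every library (adjusted p = 0.0602). Each cell type was also compared with the mean of the others, which called 7 pairs of member and cell type, 4.12% of 170, beside 1.26% over all transcripts. For Acan and Tnc, and for Hapln4 in several cell types, this comparison had no usable error, since some cell types held no counts or few. For Vcan the mean of the others also held cell types with too few counts for their own test, which covered 11 of 17. This comparison was made with all libraries and the main settings only. In the cell types of these 7 pairs the share of all transcripts called was 1.93% in Exc-DG, 0.559% in Exc-Gpc6, 0.28% in Inh-CGE, 4.58% in NN-Astro, 3.61% in NN-ODC and 1.05% in NN-OPC. For Tnr the strain difference in Exc-Gpc6 minus that of the other types was 0.79 on the log2 scale (SE 0.16, adjusted p = 0.00325), and in NN-Astro it was -0.92 on the log2 scale (SE 0.23, adjusted p = 0.00782). For Vcan it was 1.27 on the log2 scale (SE 0.21, adjusted p = 8.3e-06) in NN-Astro, 1.35 on the log2 scale (SE 0.30, adjusted p = 0.0144) in Inh-CGE and 0.78 on the log2 scale (SE 0.18, adjusted p = 0.00744) in NN-OPC, where Vcan itself hardly differed between strains while it fell in several neurons. For Ncan it was -0.45 on the log2 scale (SE 0.13, adjusted p = 0.0353) in Exc-DG and -1.55 on the log2 scale (SE 0.35, adjusted p = 0.00228) in NN-ODC.

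Of the genes that build, modify and bind this matrix, 80 were listed and 74 could be tested in at least 1 cell type. In 822 tests D2 was higher in 58 and lower in 81, or 16.9%, close to the 14.6% over all transcripts, with a median log2 fold change of -0.03. The matrix proteases and their inhibitors had 29.2% called, with 21 higher and 5 lower of 89 tests. Of these 26 calls 12 were of Timp4, a tissue inhibitor of metalloproteinases, higher in 12 of 15 cell types. In Exc-CA1-Galntl6 Timp4 had 169.6 and 178 CPM in B6 and 365 and 331 CPM in D2 (log2 fold change 0.93, SE 0.07, adjusted p = 5.37e-09), and in Inh-Lamp5 139.9 and 135 CPM in B6 and 289 and 308 CPM in D2 (log2 fold change 1.04, SE 0.15, adjusted p = 3.65e-07). Both D2 libraries were well above both B6 libraries in these cell types. Adamts9, a metalloproteinase that cuts lecticans, rose in 3 of 9, in Exc-CA1-Galntl6 from 5.82 and 4.22 CPM in B6 to 43.5 and 37.3 CPM in D2 (log2 fold change 2.93, SE 0.18, adjusted p = 1.65e-10), and Timp3 rose in 1 and fell in 2 of 17.

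Enzymes that add and modify the chondroitin sulfate chains fell more often than they rose, as did all transcripts over the cell types (8.4% lower and 6.24% higher). The chain synthesis list had 9 higher and 18 lower of 183 tests (14.8%), near the background, and the sulfation list 6 higher and 16 lower of 99 (22.2%). Most lower calls in both lists were of a few genes, named below, repeated over cell types that share libraries. Chsy3, a chondroitin synthase, fell in 7 of 17 cell types, in NN-ODC from 129 and 150.1 CPM in B6 to 77.9 and 53.9 CPM in D2 (log2 fold change -1.03, SE 0.17, adjusted p = 9.45e-05), and Chpf2, a polymerizing partner of such enzymes, fell in 7 of 16, in Exc-Gpc6 with log2 fold change -0.99, SE 0.17, adjusted p = 0.000108. Fam20b, a kinase that acts on the linkage sugars, rose in 4 of 16, in Exc-CA1-Galntl6 from 26.6 and 25.5 CPM in B6 to 44.2 and 51.2 CPM in D2 (log2 fold change 0.80, SE 0.12, adjusted p = 4.13e-05). Chst11, a 4-O-sulfotransferase, fell in 6 excitatory types and rose in 2 others of 16, in Inh-Lamp5 from 11.2 and 8.74 CPM in B6 to 46.9 and 31.9 CPM in D2 (log2 fold change 1.91, SE 0.37, adjusted p = 0.000151) and in NN-Astro from 103 and 79.6 CPM in B6 to 154.5 and 154 CPM in D2 (log2 fold change 0.80, SE 0.12, adjusted p = 1.44e-05). Ust, a 2-O-sulfotransferase, fell in 7 of 17, in Exc-DG from 155 and 143 CPM in B6 to 113 and 104 CPM in D2 (log2 fold change -0.52, SE 0.08, adjusted p = 0.000238), and the epimerase gene Dse fell in 3 of 16.

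The backbone itself gave few calls. The hyaluronan list had 1 higher and 3 lower of 73 tests (5.48%), which were Has1, a hyaluronan synthase, higher in Exc-DG (log2 fold change 0.63, SE 0.12, adjusted p = 0.0012), and Cemip, which degrades hyaluronan, lower in 3 of 13 cell types. Of the other link proteins, Hapln3 rose in NN-Astro, from 2.28 and 2.88 CPM in B6 to 9.09 and 9.15 CPM in D2 (log2 fold change 1.85, SE 0.38, adjusted p = 0.000705), 1 of 4 tests in the list. Ligands and receptors of the members had 6 higher and 21 lower of 205 tests (13.2%), near the background. Ptprd, a receptor phosphatase related to receptors of chondroitin sulfate, fell in 6 of 17, Nrp1 in 5 of 17, and Egfr fell in 3 and rose in 1 of 9. Other proteoglycans had 14 higher and 18 lower of 169 (18.9%). Gpc5, a glypican, rose in 7 of 17, in Inh-Lamp5 from 15.3 and 34.1 CPM in B6 to 75.3 and 117 CPM in D2 (log2 fold change 1.82, SE 0.26, adjusted p = 2.82e-07). Spock1, a testican, fell in 6 of 17, furthest in NN-ODC, from 463 and 363 CPM in B6 to 19.5 and 23.1 CPM in D2 (log2 fold change -4.21, SE 0.19, adjusted p = 4.94e-14), and Spock3 in 6 of 15.

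The accessibility of the promoters followed the transcripts across cell types for some members and not for others. Each of 9 members had 1 snATAC-seq peak within 1000 bases before and 500 after its start, and Cspg5 had none. For Bcan the promoter was most accessible in NN-Astro, at 74.1 and 59.7 CPM in B6 and 81.5 and 76.2 CPM in D2, and the correlation of the mean log2(CPM + 1) of transcript and promoter over 15 cell types was 0.97. It was 0.94 for Vcan, 0.91 for Ptprz1, 0.83 for Tnr, 0.73 for Ncan, 0.72 for Acan, 0.54 for Hapln4, 0.32 for Hapln1 and 0.14 for Tnc. These points share libraries, and the glial values are thin, with 24 counts in all for the Vcan promoter in NN-OPC. For Tnc, whose transcript had 76.5% of its summed CPM in NN-Astro, the promoter peak was most accessible in Exc-Cdh12.

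Between the strains, 1 of 125 tests of promoter peaks was called, that of Hapln4 in Exc-CA1-Galntl6, beside 2.73% of all peaks over cell types. It had 7.47 and 8.95 CPM in B6 and 10.6 and 10.7 CPM in D2 (log2 fold change 0.41, SE 0.13, adjusted p = 0.0361), with both D2 libraries above both B6 libraries, in one of the 2 cell types in which the Hapln4 transcript was called higher. The call was lost with DESeq2 and without B6 library 2, D2 library 2 or D2 library 3. No promoter call was made for Tnr, whose promoter in Exc-DG had 24.6 and 23.9 CPM in B6 and 25.3 and 26.7 CPM in D2 (log2 fold change 0.15, SE 0.08, adjusted p = 0.315). The promoter of the Tnr gene in NN-OPC rested on 42 counts in all and was not called (log2 fold change 1.55, SE 0.54, adjusted p = 0.957).

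Within the gene intervals, from 2 kb before the start to 2 kb past the end of the gene, differences were found mostly in Tnr and Ncan. The intervals of the 10 genes gave 71 calls of D2 against B6, 28 higher and 43 lower. Over all peaks and cell types 1.39% of tests were higher and 1.33% lower. All 71 calls fell in cell types where the share of all peaks called was 5.97% in Exc-DG, 5.03% in Exc-CA3, 5.26% in Exc-CA1-Galntl6, 2.18% in Exc-CA1-Fras1, 2.56% in Exc-CA1-Camk2d, 1.39% in Exc-ENT, 2.41% in Exc-Gpc6, 0.473% in Exc-Cdh12 and 0.87% in Inh-MGE. Most calls were in the cell types with the largest such shares. The intervals had 7 higher and 8 lower of 193 tests in Exc-DG, 3 and 13 of 193 in Exc-CA3, and 5 and 14 of 194 in Exc-CA1-Galntl6. Tnr, the longest, held 97 peaks, and of 954 tests 21 were higher and 39 lower, which fell on 31 peaks of which 27 lay in introns. Ncan held 7 peaks with 4 higher and 4 lower of 84 tests, Ptprz1 had 2 higher of 229 and Hapln4 1 higher of 61. The intervals of Acan, Bcan, Vcan, Hapln1, Tnc and Cspg5 had 0 calls by edgeR in 549 tests, of which 32 had an unadjusted p below 0.05, and DESeq2 made 0 calls.

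The sequences at the centres of 3 intronic peaks are shown, each 300 bases from GRCm38 and so of the B6 reference, 5′ to 3′ on the strand of the gene, in lower case since no motif was searched in them. The first lay 16088 bp from the start of Ncan in a peak at chr8:70104402-70105169 that was less accessible in D2 in 4 cell types. The others lay in Tnr, 193401 bp from the start in a peak at chr1:159716226-159718114 that was less accessible in 6, and 44442 bp from the start in a peak at chr1:159567976-159568447 that was more accessible in 4.
Ncan lower in D2, chr8:70104636-70104935, minus strand: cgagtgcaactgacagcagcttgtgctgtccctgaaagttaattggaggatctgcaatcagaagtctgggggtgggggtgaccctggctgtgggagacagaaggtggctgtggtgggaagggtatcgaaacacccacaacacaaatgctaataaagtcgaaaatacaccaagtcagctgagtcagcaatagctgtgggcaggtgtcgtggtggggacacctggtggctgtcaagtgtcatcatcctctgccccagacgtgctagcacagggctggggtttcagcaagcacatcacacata
Tnr lower in D2, chr1:159717021-159717320, plus strand: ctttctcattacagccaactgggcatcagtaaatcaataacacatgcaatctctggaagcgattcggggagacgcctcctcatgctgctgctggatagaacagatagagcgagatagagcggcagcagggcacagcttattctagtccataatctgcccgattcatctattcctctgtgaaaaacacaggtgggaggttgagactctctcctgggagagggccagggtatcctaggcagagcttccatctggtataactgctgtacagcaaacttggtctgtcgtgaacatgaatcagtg
Tnr higher in D2, chr1:159568062-159568361, plus strand: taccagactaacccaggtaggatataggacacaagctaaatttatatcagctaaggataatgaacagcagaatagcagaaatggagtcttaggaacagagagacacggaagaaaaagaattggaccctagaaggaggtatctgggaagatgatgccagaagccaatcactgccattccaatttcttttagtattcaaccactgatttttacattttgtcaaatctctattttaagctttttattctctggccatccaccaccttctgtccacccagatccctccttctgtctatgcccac

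The Ncan peak had 11.7 and 11.7 CPM in B6 and 4.20 and 5.03 CPM in D2 in Exc-DG (log2 fold change -1.27, SE 0.13, adjusted p = 4.8e-18) and 7.89 and 7.40 CPM in B6 and 2.54 and 3.67 CPM in D2 in Exc-CA3 (log2 fold change -1.23, SE 0.17, adjusted p = 8.25e-09). These are the neurons in which the Ncan transcript was also called lower, by calls lost without D2 library 2. It was less accessible in D2 in Exc-CA1-Fras1 (log2 fold change -1.04, SE 0.25, adjusted p = 0.00232) and Exc-CA1-Galntl6 (log2 fold change -0.57, SE 0.19, adjusted p = 0.0431) as well, where the transcript did not pass (0.12 and -0.10 on the log2 scale). A second intronic peak of Ncan, at chr8:70118529-70119771 and 1723 bp from the start, was more accessible in D2 in Exc-Gpc6 (log2 fold change 0.84, SE 0.18, adjusted p = 0.000487), Exc-CA1-Fras1 and Exc-CA1-Galntl6.

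The Tnr peak that fell in the most cell types had 19.1 and 18.8 CPM in B6 and 10.3 and 8.59 CPM in D2 in Exc-ENT (log2 fold change -1.0, SE 0.17, adjusted p = 2.72e-06) and 25 and 23.6 CPM in B6 and 17.1 and 15.2 CPM in D2 in Exc-CA1-Galntl6 (log2 fold change -0.56, SE 0.10, adjusted p = 3.65e-07). Its change was smaller in Exc-DG (log2 fold change -0.26, SE 0.07, adjusted p = 0.0109), and it also passed in Exc-CA3, Exc-CA1-Fras1 and Exc-Cdh12. All 6 are cell types in which the Tnr transcript fell. Since that transcript fell in 14 of 17 cell types and the peak was chosen after its values were seen, the overlap says little. The Tnr peak that rose, given next, was also called only in cell types where the transcript fell. The Tnr peak that rose was at a low level, with 0.786 and 0.932 CPM in B6 and 4.42 and 4.21 CPM in D2 in Exc-DG (log2 fold change 2.37, SE 0.24, adjusted p = 4.16e-18) and 0.933 and 1.37 CPM in B6 and 5.78 and 5.39 CPM in D2 in Exc-CA1-Galntl6 (log2 fold change 2.31, SE 0.24, adjusted p = 6.63e-20). Both directions were thus found inside the same gene and in the same cell types, and a peak at chr1:159819033-159819837 rose in 4 cell types, in Exc-CA3 with log2 fold change 1.29, SE 0.15, adjusted p = 6.17e-12. D2 reads were mapped to a genome with D2 bases placed into mm10, and the part of mapping in these differences was not tested.

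**Figure D5:**
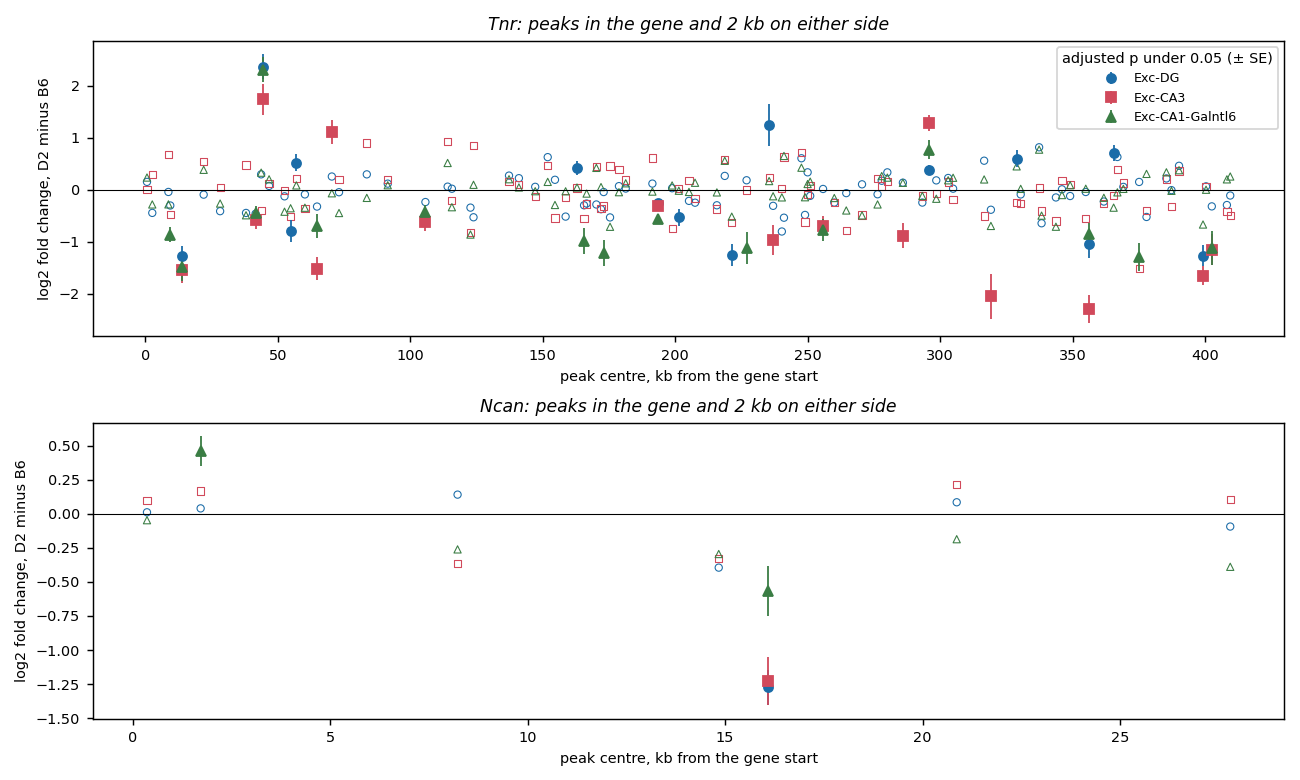
Log2 fold change of accessibility, D2 against B6, for each peak in the intervals of Tnr and Ncan, by the distance of the peak centre from the gene start in kb, in Exc-DG (circles), Exc-CA3 (squares) and Exc-CA1-Galntl6 (triangles). Filled points with a standard error passed adjusted p under 0.05 and open points did not. Filled points of Tnr lie on both sides of 0 along its length, and in Ncan the peak at 16088 bp lies below 0 in all 3 cell types, from -1.27 to -0.57.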

How the data were processed

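The authors used Cell Ranger 6.0.2 for transcripts, keeping reads in introns, and Cell Ranger ATAC 2.0.0 for chromatin (versions per the submitters' processing notes), against mm10 for B6 and mm10 carrying D2 single-base variants for D2. They filtered nuclei, removed doublets, named cell types by clustering transcripts, transferred the names to snATAC-seq, and merged peaks called per sample. The deposited values are raw counts of transcripts or peak fragments summed over nuclei by cell type and library, and the authors also deposited the count of nuclei. All 68 snRNA-seq and all snATAC-seq columns were used, placed in a strain by their names.

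CPM values used symbols with counts in both strains (24691 of 33902), since 960 had counts in B6 only and 8204 in D2 only, 2.08% of all counts. The strains were compared within each cell type by edgeR 4.0.16 (R 4.3.3), with TMM factors, filterByExpr for transcripts, at least 10 counts over 4 libraries for peaks, a quasi-likelihood F test without covariates, and Benjamini-Hochberg adjustment over all transcripts or peaks of the cell type. A fit over all columns, with the library as a block, tested the interaction of strain and cell type. The standard error is the size of the fold change divided by the square root of F. The floor for a count of 0 is 3 counts and takes account of counting error alone. Each fit was first tested on simulated data. A sum covered 45 to 1489 nuclei in snRNA-seq and 14 to 2070 in snATAC-seq, and sums over few nuclei are less precise.

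Gene positions came from GENCODE vM21 and sequences from GRCm38 and the RefSeq promoter table. The 10 members are named in every comparison. Of each list of other matrix genes, the 3 called in the most cell types are named, with the larger median change breaking ties, and for each member the 3 genes with the highest correlation over cell types, of which 1 is not reported here. The members, lists and tests were chosen with earlier results of these data known. Other features named were the peaks called in the most cell types, chosen after their values were seen. Alternatives were DESeq2 1.42.0, RLE factors, other filters, symbols of 1 strain kept, blocking on the library number, leaving out 1 library at a time, counts per nucleus, TMM over all columns, a narrower promoter window and only large cell types. The library numbers were checked as a pairing, by the correlation over features of the deviations of same-numbered libraries from their strain means, and did not pair the samples. Python 3.11.15, pandas 2.3.3, numpy 2.4.6 and matplotlib 3.10.9 were used.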

Additional observations from a re-analysis of the deposited data

Results flagged for a closer look

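These results stand out because the strain difference of a gene differed between cell types, by an edgeR test of the difference itself. The joint test over 17 cell types passed for Tnr (adjusted p = 5.78e-08), Vcan (adjusted p = 1.09e-05), Ncan (adjusted p = 7.68e-05), Ptprz1 (adjusted p = 0.00752) and Hapln1 (adjusted p = 0.0161). Ptprz1 did not pass it over the 13 cell types with at least 100 nuclei in every library (adjusted p = 0.0602). For Acan (adjusted p = 0.00469) and Tnc (adjusted p = 0.0206) the p rests on few cell types, since each had enough counts for its own test in 3 of 17, and it shows no difference in the cell types without counts.

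When 1 cell type was compared with the mean of the others, Tnr differed in Exc-Gpc6 by 0.79 on the log2 scale (SE 0.16, adjusted p = 0.00325) and in NN-Astro by -0.92 on the log2 scale (SE 0.23, adjusted p = 0.00782). Vcan differed in Inh-CGE by 1.35 on the log2 scale (SE 0.30, adjusted p = 0.0144), in NN-Astro by 1.27 on the log2 scale (SE 0.21, adjusted p = 8.3e-06) and in NN-OPC by 0.78 on the log2 scale (SE 0.18, adjusted p = 0.00744). Ncan differed in Exc-DG by -0.45 on the log2 scale (SE 0.13, adjusted p = 0.0353) and in NN-ODC by -1.55 on the log2 scale (SE 0.35, adjusted p = 0.00228). The comparisons of 1 cell type with the others were not repeated under any alternative or with a library left out. Outlying libraries were not looked for, since each strain had 2.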

How the results depend on the processing

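With DESeq2 in place of edgeR the calls, counted as pairs of gene and cell type, fell to 3 higher and 11 lower for members and to 29 and 30 for other matrix genes, promoter calls to 0 and interval calls to 5 and 12, and the cause was not tested. Leaving out 1 library at a time gave 5 to 13 pairs of member and cell type higher and 14 to 20 lower, with the fewest lower without D2 library 2 or D2 library 3 and the fewest higher without D2 library 3. The same gave 45 to 62 pairs of other matrix gene and cell type higher and 51 to 83 lower, 4 to 6 members in the interaction test, 0 to 1 promoter, and 11 to 17 interval peaks higher and 18 to 32 lower, all with fewer samples. The log2 fold change of Gpc5 in NN-VLMC ranged from -0.043 (without D2 library 2) to 1.44 (without D2 library 3). In counts per nucleus the share in the cell type that was highest by CPM was 37.2% for Bcan, 9.28% for Ncan, 57.6% for Vcan, 71.3% for Hapln1, 18.9% for Hapln4, 22.8% for Tnr, 70.5% for Tnc, 32.2% for Ptprz1 and 21.7% for Cspg5, and for promoters 24.2% for Bcan and 8.09% for Ncan. TMM over all columns gave Bcan 49.6%.

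Same-numbered libraries did not deviate together (correlation -0.263 to 0.125 in snRNA-seq, below -0.1 in 7 of 17 cell types, and -0.028 to 0.060 in snATAC-seq), so the numbers were not read as a pairing. With the library number as a block the calls were 14 higher and 23 lower for members, 64 and 88 for other genes, 1 and 0 for promoters and 28 and 40 for intervals, and the interaction without the block called 6 members. With the crossed numbers as a block, chosen after seeing the data, they were 15 and 26 for members and 69 and 89 for other genes. Of the values of the comparisons under all alternatives, 158 stayed within 1.5 times the reported count or 1 SD of the reported share and 34 did not, and RLE factors and keeping symbols of 1 strain moved the summed calls of members and of other matrix genes by less than 1.5 times. Over all transcripts and cell types keeping those symbols raised the higher calls from 12827 to 28312 and the lower ones from 17267 to 20308. Of the called genes and peaks and the interaction tests of members, 1144 values stayed on their side of the threshold, 231 lost their call and 1 turned its direction, while Bcan passed the interaction test without B6 library 3 (adjusted p = 0.0136). Pairs of member and cell type that were not called with all libraries could also pass without 1 of them, as for Tnc in NN-Astro without B6 library 3. Having 2 libraries per strain, thin glial snATAC-seq sums and sparse genes such as Acan limit what could be called.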
